A study of Mus musculus with 35 samples.

Results

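Of the 35 whole-lung RNA-seq libraries of the series, 17 come from mice given naphthalene, and these were compared by genotype, 8 KO libraries against 9 control (C) libraries, with the day after treatment held as a block. The KO genotype is RORaf/fIl7riCre, a floxed Rora gene together with a Cre recombinase of Il7r, and the C genotype is RORaf/f, the floxed gene with no Cre named. All mice carry the floxed alleles, all of these 17 had naphthalene, and the series gives the age as 14 days. At day 2 and at day 5 there were 3 KO and 3 C libraries, and at day 7 there were 2 KO and 3 C libraries. The 18 untreated libraries, 9 of each genotype, serve only as a second value beside some of the results. Cre acts in cells that express Il7r or descend from cells that did, so Rora is kept in the epithelium, stroma and endothelium that make up most of a lung. Since the C label names no Cre, loss of RORa and presence of the Cre at Il7r cannot be told apart. The labels do not say that libraries come from separate litters, and p-values measure the spread between these libraries.

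RORa is a nuclear receptor that binds single AGGTCA half-sites as a monomer and activates transcription. Group 2 innate lymphoid cells (ILC2s) need it to develop, and in the lung they answer the epithelial alarmins IL-33, TSLP and IL-25 with IL-5, IL-13 and amphiregulin, which act on eosinophils, goblet cells, macrophages and repairing epithelium. Il7r encodes the IL-7 receptor alpha chain of lymphocytes, and Cre from its locus also marks T cells, B cells and many tissue macrophages that passed through an Il7r stage. Naphthalene is turned into a toxic epoxide by the cytochrome P450 of airway club cells and kills them, after which the airway is rebuilt. The title of the series names ILC2s, and the design sets both genotypes side by side through this injury and its repair.

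Library totals were 13.06 to 19.77 M counts in KO and 15.6 to 18.91 M in C. Mitochondrial genes, haemoglobin genes and the ribosomal precursor Rn18s-rs5 took up to 2.57%, 2.06% and 2.98% of a library, and no exact within-day permutation test of these 3 shares or of the total gave an adjusted p under 0.44 (two-sided, 4000 arrangements). 2 KO libraries of day 5 stood apart. The library labelled KO replicate 1 of day 5 was the highest of the 17 for Il7r, for 6 of 22 ILC2 genes, for 7 of 15 B cell genes and for 9 of 25 interferon-stimulated genes, and the lowest for 7 of 14 alveolar type 2 genes. Its Il7r and several of its ILC2 receptor levels ran against those of the other KO libraries. These counts give no check of its genotype label, and every value over the 8 KO libraries takes it as labelled. KO replicate 2 of day 5 carries the letter i in its library name where the other day 5 libraries carry b, and its Bmal1, Clock, Nr1d1 and Dbp lay outside the range of those 5 libraries. At day 7, KO replicate 2 was the highest for 14 of 15 proliferation genes and the lowest for 10 of 15 B cell genes. A control library stood apart as well. Counts of C replicate 3 of day 7 differed more from the other 2 C libraries (chi-square per degree of freedom 52.5 and 54.7) than those differed from each other (8.80). Leaving it out changed the number of genes called at day 7 from 0 to 836. Several list counts are given with and without these libraries.

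Rora itself did not separate the genotypes. At day 2 the C lungs had 51.3, 53.5 and 38.2 CPM (counts per M library counts, with TMM-scaled library sizes) and the KO lungs 63.8, 45.5 and 64.2 CPM. At day 5 the C lungs had 38.4, 38.5 and 41.5 CPM and the KO lungs 41.7, 25.2 and 38.5 CPM. At day 7 the C lungs had 39.5, 38.9 and 53.0 CPM and the KO lungs 44.6 and 57.2 CPM. The groups overlapped at every day, and the log2 difference, KO minus C, was 0.10 ± 0.12 (SE, 95% interval -0.15 to 0.35). An exact permutation test within days gave p = 0.515 for a mean log2 difference of 0.09. A count over the whole gene in whole lung, where many other cells hold Rora, does not check the deletion in Il7r-lineage cells. In bulk tissue, fewer cells of a type and less RNA per cell cannot be told apart.

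Il7r, the gene whose locus drives the Cre, was lower in KO lungs at 2 of the 3 days in every library. At day 2 the C lungs had 8.13, 8.98 and 8.26 CPM and the KO lungs 5.32, 3.44 and 5.76 CPM. At day 5 the C lungs had 4.75, 2.55 and 4.04 CPM and the KO lungs 11.3, 3.43 and 4.46 CPM. At day 7 the C lungs had 7.04, 6.19 and 9.83 CPM and the KO lungs 6.16 and 5.26 CPM. KO values lay below all C values at days 2 and 7, narrowly at day 7, and overlapped them at day 5, where 11.3 CPM is the library labelled KO replicate 1. With 2 or 3 libraries a group, the genotypes often lie apart at a single day with no genotype effect. Here and below, separation at 1 or 2 days is description, and the share of all genes that show it was not counted. Over the 17 libraries the log2 difference was -0.15 ± 0.26 (edgeR quasi-likelihood test, adjusted p = 0.898), and the exact permutation p was 0.499. By day the differences were -0.80, 0.75 and -0.43, with an unadjusted p of 0.016 for a difference between days. Without the library labelled KO replicate 1 of day 5, a choice made after its value was seen, the exact permutation p was 0.0445 for a mean log2 difference of -0.41, and the edgeR value was -0.43 ± 0.17 (adjusted p = 0.437). Untreated lungs stood at -0.62 ± 0.28, with medians of 4.86 CPM in KO and 8.84 CPM in C, and the treated minus untreated difference was 0.47 ± 0.41 with an unadjusted p of 0.259.

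**Figure D1:**
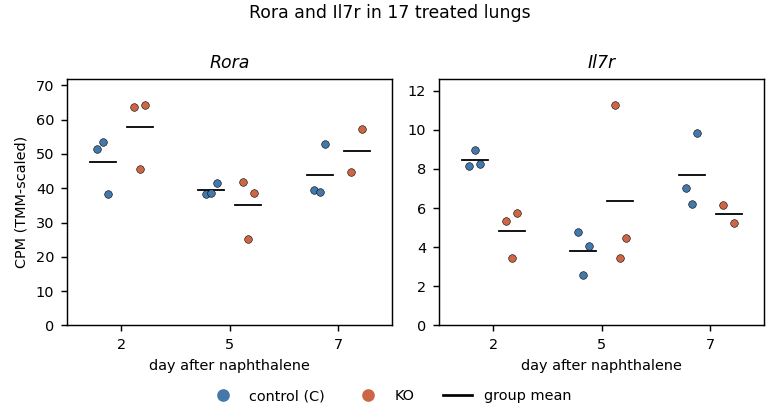
Level of Rora and Il7r in each of the 17 treated libraries (CPM, linear axis from 0) by day after naphthalene. Points are libraries and bars group means. Rora overlaps between genotypes at each day, and Il7r has KO points below all C points at days 2 and 7 and 1 KO point at 11.3 CPM at day 5.

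Across all 19749 genes tested, 0 passed an adjusted p of 0.05 (0%, smallest adjusted p 0.792 in edgeR's quasi-likelihood test, Benjamini-Hochberg adjusted). DESeq2 with the same design also called 0 genes, with a smallest adjusted p of 0.0586. At an unadjusted p of 0.05 there were 1096 genes (5.55%), 603 of them higher in KO (3.05%) and the rest lower (2.5%), and DESeq2 had 1188. The median gene was at 0.01 on the log2 scale, with 10517 genes above 0 and 9232 below. The 95% interval of the difference stayed within 2-fold in either direction for 17802 genes (90.1%) and within 1.5-fold for 13069 (66.2%). Precision followed the level, since an interval within 2-fold was reached by 53.4% of genes under 1 CPM and by 99.7% of genes over 64 CPM. Among genes at or above 1 CPM on average, 6 had an estimate beyond 2-fold. A fit with no filter on low counts called 110 of 37456 genes, 25 higher and 85 lower.

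ILC2 genes, the list closest to the deletion, lay on both sides of 0. Of 22 genes, 19 had enough reads to be tested, 8 were above 0 and 11 below, the median was -0.02 against 0.01 for all genes tested, and 0 were called. The effector cytokines Il5 and Il13 and the chemokine receptor Ccr8 were too low to test. Il5 had 28 reads over the 8 KO libraries and 35 over the 9 C libraries, Il13 8 and 12, and Ccr8 16 and 20. For 15 of the 19 tested genes the 95% interval excluded a change of 2-fold or more in either direction, and the exceptions are the low-level receptors named below.

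Il1rl1, which encodes the IL-33 receptor ST2, had 3.24, 2.04 and 2.22 CPM in C and 2.13, 2.23 and 1.88 CPM in KO at day 2. At day 5 it had 2.53, 2.37 and 2.26 CPM in C and 6.91, 1.42 and 2.60 CPM in KO. At day 7 it had 4.69, 3.10 and 4.45 CPM in C and 2.45 and 3.27 CPM in KO. The groups overlapped at each day, the highest value of all was again the library labelled KO replicate 1 of day 5, and the difference was -0.02 ± 0.25. Il17rb, the IL-25 receptor, had 1.70, 0.881 and 1.21 CPM in C and 0.532, 0.664 and 0.764 CPM in KO at day 2, with no overlap. By day 5 it reached 2.56 CPM in the library labelled KO replicate 1, against 0.365 to 0.903 CPM in the other 5, and the difference over all days was -0.35 ± 0.41. Klrg1, an inhibitory receptor of mature ILC2s, was at -0.40 ± 0.31, and Il2ra, the high-affinity IL-2 receptor chain, at -0.43 ± 0.28. The chemokine receptor Cxcr6 was at -0.46 ± 0.32, Il9r at -0.24 ± 0.28 and the prostaglandin D2 receptor Ptgdr2 at -0.05 ± 0.33. Il17rb, Klrg1, Il2ra and Cxcr6 are the 4 tested members whose interval reached past 2-fold, in each case on the lower side.

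Gata3, which specifies these cells together with RORa, had 7.37 to 8.40 CPM in C and 6.28 to 11.0 CPM in KO at day 2, 7.30 to 9.73 and 8.94 to 10.2 CPM at day 5, and 11.8 to 14.1 and 14.2 to 15.4 CPM at day 7, a difference of 0.15 ± 0.11. Bcl11b, needed for ILC2 identity and for T cells, was at 0.25 ± 0.12 and was the 1 ILC2 gene with an unadjusted p under 0.05 (adjusted p = 0.792). Areg, the EGF receptor ligand amphiregulin that injured epithelium also makes, was at 0.29 ± 0.17, with 42.0 to 43.9 CPM in C and 32.1 to 43.6 CPM in KO at day 2 and 3.61 to 7.27 and 5.67 to 9.64 CPM at day 7. The type 2 cytokine Il4 was at -0.10 ± 0.19, the growth factor Csf2 at 0.27 ± 0.18, the costimulator Icos at -0.26 ± 0.21 and the enzyme Arg1 at 0.06 ± 0.18. The neuropeptide receptor Nmur1 was at 0.11 ± 0.26, the neuropeptide gene Calca at 0.11 ± 0.18, the retinoid receptor Rxrg at -0.33 ± 0.29, Hs3st1 at 0.04 ± 0.16 and the phosphatase Ptpn13 at -0.02 ± 0.08. Several of these (Areg, Calca, Hs3st1, Ptpn13) have large sources outside ILC2s in whole lung. The summed CPM of the 22 genes was 113 to 163 in KO and 111 to 168 in C libraries.

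The library labelled KO replicate 1 of day 5 was left out after its values were seen. It was the highest treated library for Il1rl1, Il17rb, Klrg1 and Il9r, so leaving it out lowers their KO means whatever the genotype does. Without it 6 ILC2 receptor genes had lower estimates, and 0 genes of the list were called. The receptors Ptgdr2 and Nmur1 went the other way, to -0.01 ± 0.35 and 0.19 ± 0.26. Il1rl1 went to -0.34 ± 0.17, Il17rb to -0.72 ± 0.35, Klrg1 to -0.71 ± 0.27, Il2ra to -0.64 ± 0.26, Cxcr6 to -0.83 ± 0.28 and Il9r to -0.44 ± 0.26. The adjusted p was 0.407 for Cxcr6, 0.435 for Klrg1 and 0.437 for Il2ra, and these 3 had an unadjusted p under 0.05 where 0 lower genes of the list had one with all libraries. Among all genes 5.74% were lower and 4.47% higher at that unadjusted p without this library. Areg and Bcl11b were the 2 higher members at that level, at 0.36 ± 0.16 and 0.28 ± 0.12. The list median barely moved, at -0.03, with 8 genes above 0 and 11 below. By day the list medians over all libraries were -0.12, 0.23 and -0.20.

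**Figure D2:**
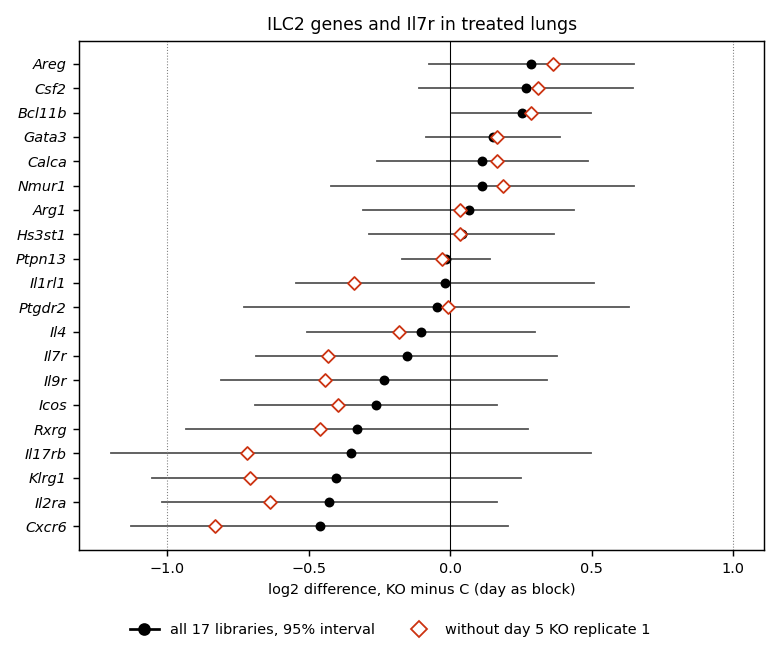
Log2 difference, KO minus C, for the 19 tested ILC2 genes and Il7r in treated lungs. Black points and lines are the estimate and 95% interval from all 17 libraries, open diamonds the estimate without the library labelled KO replicate 1 of day 5, and dotted lines mark 2-fold. The diamonds of Il1rl1, Il17rb, Klrg1, Il2ra, Cxcr6 and Il7r lie left of the points.

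The genes that ILC2 cytokines act on held no called gene either. Of 8 tested eosinophil genes, 3 were above 0 and 5 below (median -0.18, 0 with an unadjusted p under 0.05). Ear2 and Ear1, ribonucleases that alveolar macrophages share, were at -0.15 ± 0.14 and -0.20 ± 0.16. The lipoxygenase Alox15 was at -0.31 ± 0.25 and Ear6 at 0.48 ± 0.32, and the granule genes Epx and Prg3 were too low to test. Of 14 genes of alternatively activated macrophages and type 2 chemokines, 6 were above 0 and 8 below (median -0.02). On the higher side 2 had an unadjusted p under 0.05, where 3.05% of all genes tested did. Clec7a, the beta-glucan receptor Dectin-1, had 14.0, 14.9 and 12.4 CPM in C and 27.9, 22.9 and 22.3 CPM in KO at day 2, with no overlap. At day 5 it had 15.7 to 19.8 CPM in C and 18.3 to 22.4 CPM in KO, and at day 7 17.2 to 26.2 and 21.5 to 33.7 CPM, both overlapping, and the difference was 0.45 ± 0.13 (adjusted p = 0.792). Chil3, the chitinase-like protein Ym1, was at 0.46 ± 0.19. Retnla, induced by IL-4 and IL-13, ranged from 8.85 to 325 CPM in KO and 11.9 to 521 CPM in C and was at -0.33 ± 0.42. The cytokine signalling inhibitor Cish had the smallest p on the lower side, at -0.22 ± 0.12.

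Alarmins and their receptors counted 8 genes above 0 and 3 below of 11 tested (median 0.18). The alarmin Il33 was at 0.18 ± 0.16 and the receptor Il18r1, with the highest level of the list, at 0.07 ± 0.15. Il7, the ligand of the receptor whose locus carries the Cre, had 1.91, 1.82 and 1.72 CPM in C and 2.66, 2.23 and 2.76 CPM in KO at day 2. By day 5 it had 1.71, 1.95 and 1.94 CPM in C and 2.80, 1.69 and 2.71 CPM in KO, and at day 7 2.65, 2.84 and 2.94 CPM in C and 3.71 and 3.11 CPM in KO. KO values lay above all C values at days 2 and 7, and the difference was 0.38 ± 0.14 (adjusted p = 0.792), beside 0.48 in untreated lungs. Crlf2, the TSLP receptor chain, was at -0.53 ± 0.25, with every KO library below every C library at day 2 and overlap at the other days. Of 11 goblet and mucin genes, 3 were above 0 and 8 below (median -0.17), and without KO replicate 1 of day 5 the median was -0.31. Chil4, the chitinase-like Ym2, was at -2.05 ± 0.93, and its level ran from 0 to 11.6 CPM among C and from 0 to 2.95 CPM among KO libraries. The mucin Muc5b was at -0.68 ± 0.50 and the secretory-cell protein Bpifb1 at -0.39 ± 0.44.

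RORa competes with the repressors REV-ERB alpha and beta (Nr1d1 and Nr1d2) for the same response element, and Bmal1 is the clock gene best known to carry it. The element is shown for Bmal1, as the textbook case, and for Nfil3, the 1 clock gene with a match in the 250 bases before its start (RefSeq sequence, build GRCm38.p6, 5′ to 3′ in the sense of the gene). Capitals mark the core TAGGTCA or its reverse complement TGACCTA.
Bmal1 (chr7:113207530-113207559, + strand): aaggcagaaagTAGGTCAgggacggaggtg
Nfil3 (chr13:52981040-52981099, - strand): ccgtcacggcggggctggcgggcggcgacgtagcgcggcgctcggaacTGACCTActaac
TAGGTCA and TGGGTCA were searched on both strands. In the 250 bases before the start they occurred for 1 of the 16 clock genes with a RefSeq entry and for 6.15% of all 27025 genes. In Bmal1 the core begins 31 bases after a start, and 6.45% of all 300-base windows that include the first 50 bases of the transcript hold one of these cores. The 10 genes with the smallest p described further on had 0 matches in the 250 bases before the start, as did Rora and Il7r. A match of letters is a description and not a site.

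Of 18 tested clock genes and RORa targets, 12 were above 0 and 6 below, the median was 0.07, and 0 were called. Bmal1 had 17.7, 13.8 and 16.9 CPM in C and 10.6, 6.82 and 20.1 CPM in KO at day 2. At day 5 it had 19.3, 27.3 and 23.8 CPM in C and 20.9, 8.17 and 25.7 CPM in KO, and at day 7 9.81, 5.81 and 7.02 CPM in C and 15.5 and 4.54 CPM in KO. The genotypes overlapped at each day, and the difference was -0.15 ± 0.26. Its partner Clock was at 0.05 ± 0.13 and the paralog Npas2 at -0.23 ± 0.21. Nfil3, a repressor of D-box genes that is also needed for innate lymphoid cells, had the smallest p on the lower side at -0.30 ± 0.16. Nfil3 had 17.1, 13.3 and 17.9 CPM in C and 8.92, 8.09 and 14.2 CPM in KO at day 2, and 1 KO value lay within the C range.

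Nr1d2 and Bhlhe41 were the 2 clock genes with an unadjusted p under 0.05, both higher in KO, where 3.05% of all genes tested were. Nr1d2, REV-ERB beta, had 72.5, 85.2 and 57.8 CPM in C and 136, 109 and 92.3 CPM in KO at day 2. By day 5 it had 72.9, 63.0 and 58.6 CPM in C and 102, 73.2 and 64.5 CPM in KO, and at day 7 98.9, 114 and 151 CPM in C and 133 and 189 CPM in KO. It was above all C values at day 2 only, and the difference was 0.45 ± 0.12 (adjusted p = 0.792). Bhlhe41, a clock repressor also expressed by alveolar macrophages, was at 0.34 ± 0.13. Nr1d1 was at 0.20 ± 0.18, the D-box activators Dbp at 0.37 ± 0.40, Tef at 0.17 ± 0.14 and Hlf at 0.25 ± 0.15, and the period and cryptochrome genes lay from -0.15 (Per1) to 0.27 (Per3). The repressor Ciart was at -0.21 ± 0.17 and Bhlhe40 at 0.12 ± 0.14, and Rorb was too low to test.

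KO replicate 2 of day 5 decided the sign of some of these. It had 161 CPM of Nr1d1 where the other 5 libraries of that day had 50.9 to 73.4 CPM, and 95.5 CPM of Dbp against at most 26.5 CPM. Its Bmal1, at 8.17 CPM, was below the 19.3 to 27.3 CPM of the others. Without it Nr1d1 was at -0.01 ± 0.12, Dbp at -0.04 ± 0.25, Bmal1 at -0.03 ± 0.24 and Nr1d2 at 0.48 ± 0.13 (adjusted p = 0.233), and the list counted 9 genes above 0 and 9 below. The clock genes move with time of day, which is not given in the sources used here, and its part in the result was not tested.

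**Figure D3:**
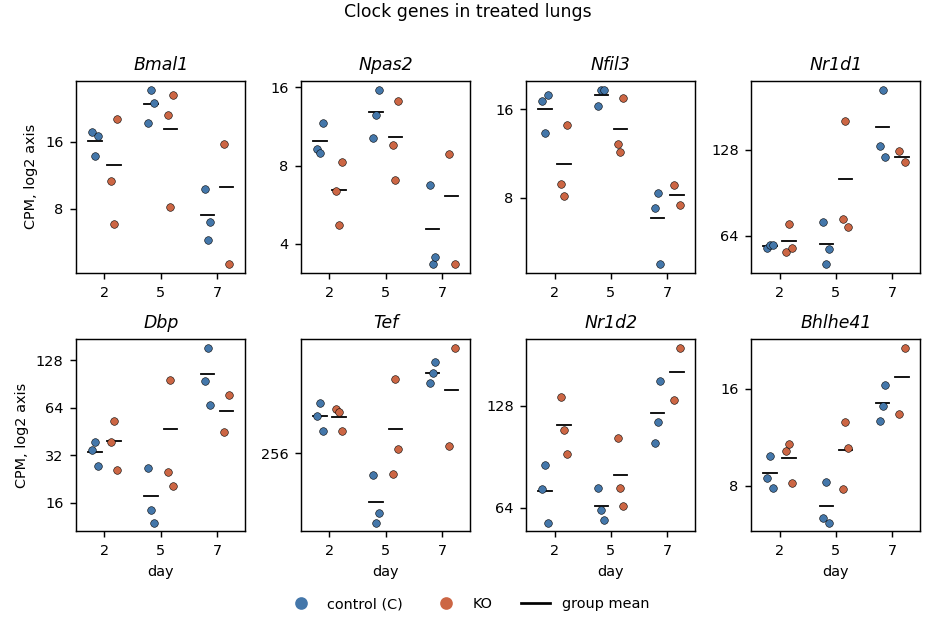
CPM (log2 axis) of 8 clock genes in each treated library by day, with arithmetic group means as bars. At day 5 KO replicate 2 is the lone KO point at the bottom of Bmal1 (8.17 CPM) and at the top of Nr1d1 (161 CPM) and Dbp (95.5 CPM), and Nr1d2 shows KO above C at day 2.

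The 10 genes with the smallest p, after 6 gene models and pseudogenes were passed over, are described as the genes nearest to a call. All had an adjusted p of 0.792. The stress-inducible HSP70 genes Hspa1a and Hspa1b led, lower in KO. They were 2 of the 5 genes of all tested (0.0253%) with every KO library below every C library at each of the 3 days. For any gene, 1 of the 4000 arrangements of labels within days gives this. A few of 19749 genes are therefore due to show it with no genotype effect. Hspa1a had 8.18, 9.14 and 7.18 CPM in C and 5.39, 4.65 and 5.06 CPM in KO at day 2. At day 5 it had 22.7, 33.7 and 22.4 CPM in C and 18.1, 20.6 and 8.69 CPM in KO, and at day 7 14.0, 19.9 and 9.15 CPM in C and 6.86 and 6.45 CPM in KO. The difference was -0.82 ± 0.17, against -0.10 in untreated lungs, where single libraries reached 77.4 CPM in C and 64.4 CPM in KO, and the difference between treated and untreated lungs had an unadjusted p of 0.0907. Hspa1b was at -0.78 ± 0.17. The pair are near-identical copies, how reads matching both were counted is not given in the sources used here, and both values are uncertain.

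Ptgs2, the inducible cyclooxygenase COX-2 of prostaglandin synthesis, was the higher gene with the smallest p. It had 9.99, 10.5 and 9.73 CPM in C and 15.8, 12.3 and 13.6 CPM in KO at day 2. By day 5 it had 6.15, 6.81 and 6.72 CPM in C and 5.96, 10.5 and 10.9 CPM in KO, and at day 7 4.27, 5.12 and 6.20 CPM in C and 8.40 and 11.0 CPM in KO. KO lay above C at days 2 and 7, and at day 5 the exception was the library labelled KO replicate 1, for a difference of 0.59 ± 0.13, beside 0.30 in untreated lungs.

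The other 7 have lower levels. Ccdc15, a coiled-coil protein gene, was 1 of 2 genes (0.0101%) with every KO library above every C library at each day, from 1.05 to 2.12 CPM in KO and 0.608 to 1.14 CPM in C, a difference of 0.69 ± 0.18. The zinc finger genes Zfp995 and Zfp808 were at 0.67 ± 0.16 and 0.91 ± 0.25, with KO above all C values at days 2 and 7 for Zfp995 and at day 7 for Zfp808. Zfp995 had 1.53 to 2.37 CPM in C and 2.72 to 4.23 CPM in KO at day 2, and 2.02 to 2.47 and 4.06 to 5.10 CPM at day 7. Its difference between treated and untreated lungs was 0.80 (adjusted p = 1.000). Prrg4, a transmembrane protein with a Gla domain, was at 0.71 ± 0.19, with 0.438 to 1.08 CPM in C and 0.677 to 2.18 CPM in KO. Sla2, an adaptor that limits T cell receptor signalling, was at -0.69 ± 0.18, with 1.52 to 1.69 CPM in C and 0.637 and 0.770 CPM in KO at day 7. Tacr1, the substance P receptor, was at -1.27 ± 0.34, with 0.127 to 1.58 CPM in C and 0.0666 to 0.596 CPM in KO, levels at which few reads carry the value.

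Club cell genes, which naphthalene targets, counted 8 above 0 and 12 below of 20 (median -0.11). At an unadjusted p of 0.05, 3 were lower and 1 higher, where 2.5% and 3.05% of all genes tested were. Scgb1a1, the secretoglobin that defines these cells, had 740, 575 and 377 CPM in C and 396, 419 and 467 CPM in KO at day 2. At day 5 it had 1808, 2495 and 1895 CPM in C and 1848, 1721 and 1826 CPM in KO, and at day 7 6764, 4821 and 3392 CPM in C and 3740 and 2471 CPM in KO. The genotypes overlapped at each day, both had their highest values at day 7, and the difference was -0.41 ± 0.15 (adjusted p = 0.792), beside -0.13 in untreated lungs. The lactonase Pon1 was at -0.46 ± 0.15, with 3.76 to 4.38 CPM in KO and 5.51 to 7.12 CPM in C at day 5 and overlap at days 2 and 7. Lypd2 was at -0.79 ± 0.29, with 9.16 and 11.6 CPM in KO and 14.2 to 47.0 CPM in C at day 7. The esterase Ces1d was at 0.27 ± 0.13 and the carbonyl reductase Cbr2 at -0.15 ± 0.15. Cyp2f2, the enzyme that activates naphthalene in the mouse, was at -0.24 ± 0.15 and was added after its value was seen.

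The ciliated, basal, injury-associated and alveolar lists had medians from -0.02 to 0.18. Of 22 ciliated cell genes, 10 were above 0 and 12 below (median -0.01), with the multiciliogenesis regulator Ccno at -0.32 ± 0.15 as the 1 lower gene at an unadjusted p of 0.05. Of 13 basal cell genes, 9 were above 0 and 4 below (median 0.18). The epithelial 14-3-3 sigma gene Sfn was at -0.43 ± 0.13, with 36.4 to 46.8 CPM in KO and 54.0 to 70.6 CPM in C at day 2, and the transcription factor Snai2 was at 0.29 ± 0.13. Of 16 injury-associated epithelial genes, 8 were above 0 and 8 below (median -0.02). The EGF receptor ligand Ereg was at 0.54 ± 0.22, and the cornified envelope gene Sprr1a at -0.62 ± 0.27, with at most 2.53 CPM in KO and 3.52 to 4.78 CPM in C at day 2. The alveolar type 1 and type 2 lists had medians of 0.05 and 0.16. The type 2 list depended on 2 libraries of day 5. The library labelled KO replicate 1 was lowest for 7 of 14 genes, so leaving it out raises the KO means of those 7. Without it the median was 0.25 and 6 of 14 genes were higher at an unadjusted p of 0.05 (4.47% of all genes), where 0 were with all libraries. KO replicate 2 was the highest for 8 of 14. Without that library the median was 0.09, with 0 genes higher and 2 lower at that p (7.50% and 7.74% of all genes). Without KO replicate 2 of day 5 the injury-associated list had 3 genes above 0 and 13 below (median -0.15).

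B cell genes lay mostly below 0. Of 15 genes, 2 were above 0 and 13 below (median -0.23), and 5 had an unadjusted p under 0.05, all lower, where 2.5% of all genes tested did. Ighm, the immunoglobulin heavy chain of naive B cells, had 147, 125 and 161 CPM in C and 137, 122 and 91.9 CPM in KO at day 2. By day 5 it had 112, 89.6 and 103 CPM in C and 139, 75.1 and 71.7 CPM in KO, and at day 7 123, 100 and 125 CPM in C and 70.8 and 52.2 CPM in KO. KO lay below C at day 7 alone, and the difference was -0.40 ± 0.15 (adjusted p = 0.792). Cd79a, a signalling chain of the B cell receptor, was at -0.44 ± 0.20, the tetraspanin Cd37 at -0.38 ± 0.14, the transcription factor Spib at -0.44 ± 0.17 and Vpreb3, of B cell precursors and some mature B cells, at -0.49 ± 0.21. The list medians by day were -0.22, 0.12 and -0.81. The list depended on 2 libraries. The library labelled KO replicate 1 of day 5 was the highest for 7 of 15 genes, so leaving it out lowers the KO means of those 7. Without it 15 of 15 genes were below 0 (median -0.46). Of these, 10 had an unadjusted p under 0.05, where 5.74% of all genes were lower, and Ighm was at -0.54 ± 0.12 (adjusted p = 0.244). KO replicate 2 of day 7 was the lowest for 10 of 15, so leaving it out raises the KO means of those 10. Without that library the median was -0.12, with 4 genes above 0 and 11 below. At an unadjusted p of 0.05, 2 were then lower, where 1.49% of all genes were. In untreated lungs the median of the B cell list was -0.13. Of 9 plasma cell genes 1 was above 0 and 8 below (median -0.26), and of 4 gamma-delta T cell genes 1 was above and 3 below (median -0.38).

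T cell genes counted 15 above 0 and 3 below of 18 (median 0.07). At an unadjusted p of 0.05, 3 were higher (3.05% of all genes). Without KO replicate 2 of day 5 there were 0 (7.50% of all genes), and without KO replicate 2 of day 7 also 0 (2.65%). The coreceptor gene Cd8b1 was at 0.31 ± 0.14, and the abundant members Lef1 and Ccr7 at 0.05 ± 0.09 and 0.05 ± 0.11. The interval excluded a change of 2-fold for all 18. The 13 tested NK cell genes had a median of 0.08 and were spread from -0.80 ± 0.42 (the activating receptor Ncr1) to 0.59, and their list medians by day were 0.65, -0.03 and -0.40. KO replicate 1 of day 5 was the highest library for 5 of 14 NK cell genes, and without it 5 were above 0 and 7 below, with a median of -0.17. Klrd1, the NK receptor chain CD94, was at 0.42 ± 0.19, with the cytotoxic cell genes Ccl5 and Nkg7 at -0.18 ± 0.22 and -0.06 ± 0.16.

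Myeloid lists had a few genes at an unadjusted p of 0.05. The list of interstitial macrophages and monocytes had 7 above 0 and 6 below of 13. At that p 2 were higher and 1 lower, where 3.05% and 2.5% of all genes tested were. The monocyte chemokine receptor Ccr2 was at 0.57 ± 0.22, ranging at day 2 from 7.97 to 24.4 CPM in KO and 7.63 to 11.1 CPM in C. C1qc, a chain of complement C1q made by tissue macrophages, was at -0.36 ± 0.14, and Lyve1 and Csf1r were the most abundant members. The alveolar macrophage list had 8 above 0 and 6 below of 14 and a median of 0.11. At an unadjusted p of 0.05, 2 were higher (3.05% of all genes), and 5 without KO replicate 1 of day 5 (4.47% of all genes). Of 14 neutrophil genes, 9 were above 0 and 5 below (median 0.18), and medians by day were -0.74, 0.18 and 1.15. Cd177, a neutrophil surface glycoprotein that airway epithelium can also express, was at 0.66 ± 0.30, with 153 and 178 CPM in 2 KO libraries of day 5 against 24.1 to 67.3 CPM in C and 48.9 CPM in the library labelled KO replicate 1. At day 7 the neutrophil alarmin S100a9 had 215 and 29.9 CPM in the 2 KO libraries and 26.7 to 48.0 CPM in C, so that 1 of 2 libraries carried that day.

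Interferon-stimulated genes counted 22 above 0 and 3 below of 25 (median 0.12), with 1 at an unadjusted p of 0.05, the RNA sensor Ifih1 at 0.33 ± 0.14. Their median in untreated lungs was -0.29. For 9 of 25 the difference between treated and untreated lungs had an unadjusted p under 0.05, where 1.94% of all genes did, and 0 were called. Oas1a, a sensor of double-stranded RNA, was at 0.22 ± 0.15 in treated and -0.53 in untreated lungs, a difference of 0.75 ± 0.21 (adjusted p = 1.000). Without the library labelled KO replicate 1 of day 5, the highest for 9 of these genes, 17 were above 0 and 8 below in treated lungs. At an unadjusted p of 0.05, 1 was higher with all libraries. Without KO replicate 1 of day 5 there were 0 (4.47% of all genes), and without KO replicate 2 of day 5 there were 5 (7.50%). The 9 genes that differed between treated and untreated lungs were counted with all libraries only.

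Proliferation genes were all 15 above 0 (median 0.23) with 0 at an unadjusted p of 0.05, and this rested on 1 library. KO replicate 2 of day 7 had 51.2 CPM of the topoisomerase Top2a and 32.4 CPM of Mki67, against 7.23 to 15.6 CPM and 5.32 to 11.9 CPM in the other KO libraries. Without it 6 of 15 were above 0 and the median was -0.04. Summed over the list, the highest library had 441 CPM in KO (median 159) and 321 CPM in C (median 166). Without C replicate 3 of day 7 all 15 stayed above 0 (median 0.41), and the list median at day 7 went from 0.69 to 1.30. Of 12 red cell genes, 10 were above 0 (median 0.38, and -0.22 in untreated lungs), from -0.49 (Hba-a2) to 0.74. At an unadjusted p of 0.05, 1 was higher with all libraries, and this count moved with the library left out. It was 6 without KO replicate 2 of day 7 (median 0.48, 2.65% of all genes) and 4 without KO replicate 1 of day 5 (median 0.43, 4.47%). It was 0 without KO replicate 2 of day 5 (median 0.31, 7.50%) and 2 without C replicate 3 of day 7 (median 0.44, 3.71%). Bpgm, an enzyme of red cell glycolysis, was at 0.28 ± 0.13. In the fibroblast and matrix list Eln, which encodes elastin, was at -0.39 ± 0.14. Of the 508 distinct genes of all 39 lists that are in the table, 466 were tested, 0 were called and 35 had an unadjusted p under 0.05, where 5.55% of all genes tested did.

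**Figure D4:**
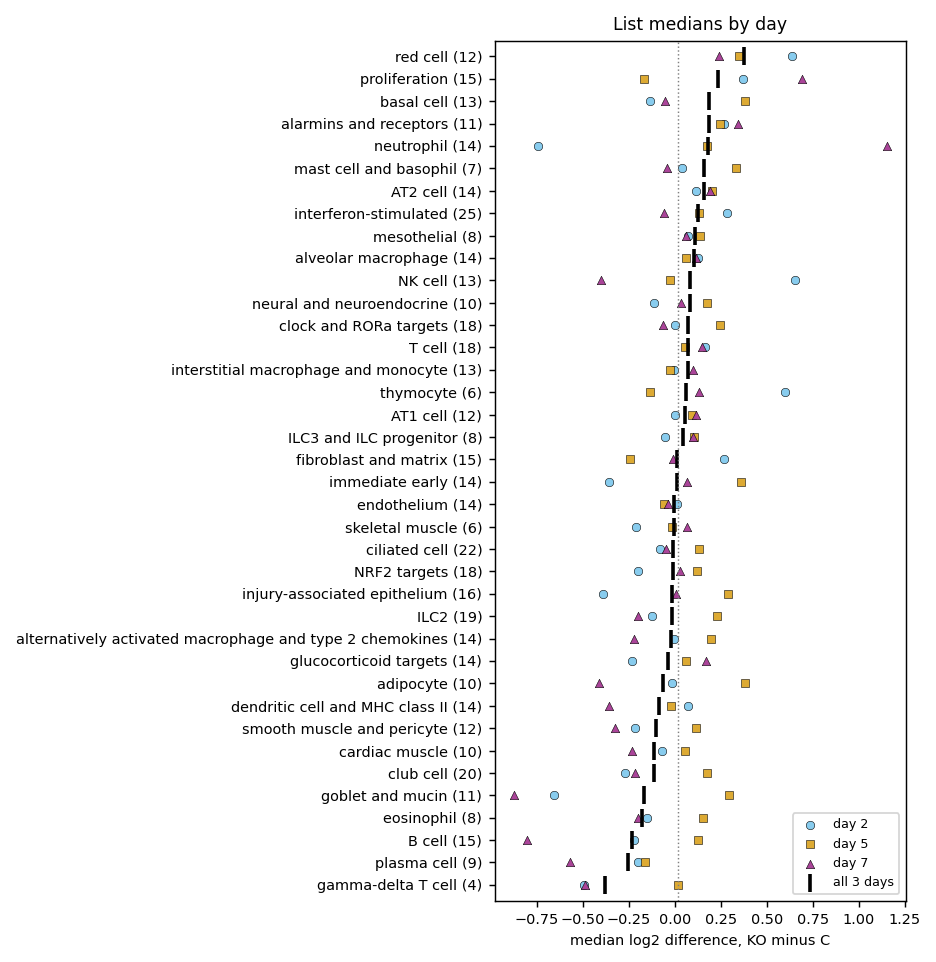
Median log2 difference, KO minus C, of the tested members of 38 gene lists (number tested in brackets, a list of sex-linked genes left out) at days 2, 5 and 7 and over all 3 days. The dotted line is the median of all genes tested (0.01). The neutrophil, proliferation, NK cell, goblet and B cell lists have day medians that lie far apart, and no list has a called gene.

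The contrast of the genotypes at each single day, within the fit of all 17 libraries, also gave 0 called genes by edgeR. At day 2, 1947 genes (9.86%) had an unadjusted p under 0.05, 4.75% of all genes higher in KO and 5.11% lower. At day 5 there were 700 (3.54%), 1.6% higher and 1.94% lower, and at day 7 2222 (11.3%), 4.08% higher and 7.17% lower. A test of whether the genotype difference varied between days called 0 genes, with 2037 (10.3%) at an unadjusted p of 0.05. DESeq2 called 0 genes at day 2, 2 at day 5, 1 at day 7 and 2 between days. The chaperone Hspa5 (BiP) of the endoplasmic reticulum was called by DESeq2 at day 5 and between days, and stood at 0.26 ± 0.13, -0.53 ± 0.13 and 0.52 ± 0.14 at days 2, 5 and 7 in edgeR. The disulfide isomerase Pdia3, of the same compartment, was at 0.40 ± 0.13, -0.41 ± 0.13 and 0.48 ± 0.15. Psapl1 was at 2.10 ± 0.42 at day 5, and Vpreb3 at -1.34 ± 0.28 at day 7.

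Calls at single days turned on single libraries. Without the library labelled KO replicate 1, day 5 had 25 called genes, 18 higher and 7 lower. They included Psapl1 at 2.53 ± 0.26, Cxcl17 at 1.13 ± 0.15, Msln at 1.04 ± 0.20 and Tspan1 at 0.83 ± 0.13, and Hsph1 at -1.12 ± 0.15, Dnaja1 at -0.91 ± 0.16 and Ahsa2 at -1.04 ± 0.17 (named after their values were seen). With all libraries the same genes stood at 2.10, 0.72, 0.65, 0.46, -0.66, -0.59 and -0.39. Without C replicate 3 of day 7, the day 7 count was 836, 90 higher and 746 lower, led by Palm at -1.02 ± 0.16 and Gpr4 at -1.35 ± 0.22 on the lower side and Hmgb2 at 1.22 ± 0.24 and Slco4c1 at 1.04 ± 0.21 among higher genes that are no gene models or pseudogenes. With all libraries these were at -0.73, -1.06, 0.82 and 0.69. The fit without C replicate 3 set the 2 KO libraries of day 7 against C replicates 1 and 2 alone. These C libraries were close to each other (chi-square per degree of freedom 8.80), so leaving out replicate 3 lowers the spread within C. Their TMM factors, 0.915 and 0.905, were the lowest of the treated libraries, and the part of this in the count was not tested. Day 2 had 1 called gene, Pde4b, without KO replicate 3 and 86 when its 6 libraries were fitted alone.

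Untreated lungs, fitted the same way, gave 0 called genes of 20606, with 1150 (5.58%) at an unadjusted p of 0.05, 3.11% higher and 2.48% lower. The test of the difference between the genotype effects in treated and untreated lungs called 0 genes and had 399 (1.94%) at that level, 1.06% higher and 0.874% lower. Beside Il7r, Hspa1a and Zfp995 above, Sla2 was at -0.04 in untreated lungs, Tacr1 at -0.20, Nr1d2 at 0.11 and Ccdc15 at 0.27, and each of these 4 differences had an adjusted p of 1.000.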

How the data were processed

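The deposited table holds raw counts per Ensembl mouse gene with symbols. Per the submitters' processing notes the genome build is GRCm39 and DESeq2 was used, with no role given, and the aligner, counter and annotation were not named in these sources. RNA came from an aliquot of whole-lung homogenate and a Watchmaker Genomics mRNA kit, per the labels' protocols. The 17 treated libraries were fitted with edgeR 4.0.16 in R 4.3.3: filterByExpr on the 6 groups (19749 of 57186 genes), TMM scaling, robust quasi-likelihood F-tests on day plus genotype, two-sided, Benjamini-Hochberg over all genes, threshold 0.05. Days and differences between days used 6 group means. Errors are SE, and intervals use the moderated t distribution. The residual degrees of freedom were 13 and the common biological coefficient of variation 0.201. Permutation tests used log2 CPM (prior count 2). DESeq2 1.42.0, DESeq2 size factors, no filter, blocks and left-out libraries were alternatives, and scripts were tested on simulated data. Named genes are the 10 smallest p, Rora, Il7r, ILC2 and clock genes (1 of them is not reported here), and each list's smallest p and most abundant members. These members and lists were chosen with earlier results of these data known.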

Additional observations from a re-analysis of the deposited data

Results flagged for a closer look

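In 2 of 102 checks of a gene or library measure within the 8 KO or 9 C treated libraries, the lowest library stood farther from the rest than Dixon's 95% limit allows, and chance flags about 1 in 20. Clock was lowest in KO replicate 2 of day 5 (26.5 CPM, next 42.2 CPM). Per2 was lowest in KO replicate 1 of day 7 (47.8 CPM, next 94.8 CPM).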

How the results depend on the processing

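The count of 0 called genes for the genotype effect held with DESeq2, its size factors, a non-robust fit, 12 group means, Xist as a covariate, library letter as block, each day left out and each of the 17 libraries left out (0 to 0). The replicate block also gave 0, here and at each day. No pairing by replicate number was seen, since 2 of 8 same-numbered pairs correlated above 0.1 and 2 of 8 correlated best with their own number. These correlations cannot exclude a shared litter or shared handling. No filter on low counts gave 110, and 204, 45, 492 and 581 at days 2, 5, 7 and between days. In that fit the prior degrees of freedom became infinite, and 10 named genes passed: Hspa1a -0.83, Hspa1b -0.79, Ptgs2 0.58, Nr1d2 0.44, Ccr2 0.55, Crlf2 -0.54, Chil4 -2.06, Sfn -0.44, Chil3 0.45 and Muc5b -0.69. DESeq2 gave 2 at day 5, 1 at day 7 and 2 between days, and day 2 alone 86. Leaving out 1 library gave 0 to 1 at day 2 (1 without KO replicate 3), 0 to 25 at day 5 (25 without KO replicate 1), 0 to 836 at day 7 (836 without C replicate 3), 0 to 10 between days (10 without day 5 KO replicate 1) and 0 to 0 for untreated lungs and for the difference from them. Il7r by permutation was at -0.41 (p = 0.0445) without day 5 KO replicate 1 and at -0.15 (p = 0.62) without day 5 KO replicate 2.

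The sign turned, with a shift of over 1 SE, in 19 of 2784 values of 96 named genes. Without day 2 these were Il7r 0.23, Ptgdr2 0.33, Alox15 0.11 and Retnla 0.26. Without day 5 they were Hs3st1 -0.21, Cry2 -0.050, Nr1d1 -0.13, Dbp -0.23 and Tef -0.079. Without day 7 they were Il4 0.10, Lck 0.021, Ccl5 0.090 and Nkg7 0.14. With library letter as block Nr1d1 was at -0.0038 and Dbp at -0.034, and without KO replicate 2 of day 5, the library of letter i, at -0.012 and -0.041. Leaving out 1 library at a time gave -0.012 to 0.29 for Nr1d1 and -0.041 to 0.59 for Dbp. The cause was not tested. Of the 96 genes, 62 kept their sign throughout. Of 1131 values of list medians, 99 changed sign and 18 moved by more than the list's median SE. Depth limits genes under 1 CPM, including Il5 and Il13.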

Other observations

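Gene families looked at after the values were seen are given as description. Of 83 tested genes of cytosolic ribosomal proteins, 75 were below 0 (median log2 -0.13), with 0 called. At an unadjusted p of 0.05, 2.5% of all genes tested were lower, against 21 of these 83, and 0 of these were higher. Their medians by day were -0.28, -0.05 and -0.07, and -0.04 in untreated lungs. Of 371 zinc finger genes with a Zfp symbol, 263 were above 0 (median 0.10), with 0 called. At an unadjusted p of 0.05, 32 were higher and 7 lower, where 3.05% and 2.5% of all genes tested were. The median of the Zfp genes in untreated lungs was also 0.10. Of 18 heat shock protein and chaperone genes, 12 were below 0, with list medians of 0.24, -0.40 and 0.00 at days 2, 5 and 7.

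The genes with full separation of the genotypes at all 3 days that are not described above are Casq2, the cardiac form of calsequestrin, at -0.42 ± 0.12, the F-box gene Fbxo24 at -0.38 ± 0.16, the formin Fmn1 at 0.45 ± 0.15 and the gene model 4933437G19Rik at -1.42 ± 0.43, each with an adjusted p of 0.792. Of all genes tested, 0.0253% separated fully on the lower side and 0.0101% on the higher side. For any gene, 1 of 4000 arrangements of labels within days does so in a given direction.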
